A study of Mus musculus with 11 samples.

Results

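The 38 genes described here encode the proteins that bring glucose into the cell, the enzymes of glycolysis, the lactate dehydrogenases and lactate carriers, the kinases that restrain pyruvate oxidation, the sensors and targets of the hypoxia response, and the first oxidative enzymes of the pentose phosphate pathway. They were chosen by gene symbol from a list of these functions, with earlier results of these data known. All 38 were among the 34745 genes of the deposited expression table, and 37 reached an FPKM (fragments scaled to transcript length and library size) of 1 in at least 2 of the 11 libraries. The gene below that minimum was Pfkfb2, at 0.397 to 0.91 FPKM in the 11 libraries, and it was not tested. The cells were microglia, the resident macrophages of the brain, taken from C57BL/6 mice of 6 to 8 weeks (source tissue cerebrum) and kept in culture for 10 to 14 days with 5 ng/ml TGF-β1 and 10 ng/ml M-CSF, 2 factors that every group received. Control cells were otherwise untreated (3 libraries). The Pam3CSK4 group received 100 ng/ml of this synthetic lipopeptide agonist of Toll-like receptor 2 for 24 h (2 libraries). The IFN-γ group received 20 ng/ml of interferon-γ for 24 h (3 libraries). The Pam3CSK4+IFN-γ group received the agonist first and IFN-γ afterwards, at these doses and times (3 libraries). One label field of replicates 2 and 3 of that group writes the agonist's name with another final digit, and these libraries were taken as the same treatment. The sources used here do not say whether libraries of a group came from separate mice or cultures, or how long after Pam3CSK4 alone the cells were collected, so p-values measure only the spread between these libraries, which may be technical.

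Glycolysis turns glucose into pyruvate in the cytosol. Hexokinases trap glucose as a phosphate, phosphofructokinase commits it to the pathway, and the later steps from aldolase to pyruvate kinase yield ATP and NADH. Lactate dehydrogenase reduces pyruvate to lactate, which leaves the cell through monocarboxylate carriers, while pyruvate dehydrogenase passes pyruvate to mitochondrial oxidation unless its kinases switch it off. The transcription factor subunit HIF-1α, which prolyl hydroxylases mark for degradation when oxygen is present, activates many of these genes, and macrophages exposed to bacterial ligands or interferon are known to raise their use of glucose.

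The libraries held 15033702 to 20321017 counts. All 20 microglial marker genes were at 1 FPKM or more in the Control and IFN-γ libraries and 18 of 20 in the Pam3CSK4 and combined libraries, with a summed level of 10331 to 20122 FPKM. The summed level of 18 mural cell and fibroblast markers was 2343 FPKM in Control replicate 3, 135 in IFN-γ replicate 1 and 70.6 in combined replicate 3, against 18.8 to 64.4 in the other 8 libraries. Cspg4 alone made up most of the sum in each of those 8 libraries, at 15.8 to 61.2 FPKM. It was at 57.5, 9.83 and 14 FPKM in the 3 libraries named first. Of these 18 markers, 12, 10 and 6 were at 1 FPKM or more in those 3 libraries and 1 to 3 in the others. Acta2, a smooth muscle actin, was at 865, 44.1 and 10.5 FPKM in them and at 0.21 to 1.41 elsewhere. Marker sums were at most 33.5 FPKM for astrocytes, 10.9 for neurons, 29.1 for endothelial cells and 18.8 for other immune cells. The neuronal marker Tubb3 was at 6.88, 10.7 and 3.48 FPKM in the same 3 libraries and at most 0.398 elsewhere. Of the endothelial markers, Cdh5 was at 13.7, 1.96 and 1.63 FPKM in those 3 libraries and at most 0.25 elsewhere, Flt1 was at 11 to 28.3 in the Control and IFN-γ libraries and at 1.16 to 1.55 in the others, and Cldn5 was listed at 0 throughout. Of the other immune markers, S100a8 was at 3.7 to 11.3 FPKM, Ly6c2 at up to 6.97, and the T cell gene Cd3e was listed at 0. Values without those 3 libraries are given below for the counts over all members and for some of the single genes whose calls changed. These are bulk libraries, in which fewer cells of a type and less RNA per cell cannot be told apart.

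The members together took 1.03% to 1.18% of all counts in the Control libraries, 1.38% and 1.48% after Pam3CSK4, 1.61% to 1.70% after IFN-γ and 1.4% to 1.44% after both. The 3 treated groups did not overlap the Control group in this share, and the IFN-γ libraries were above all others. Within that total the members moved in different directions, as the plot of every member in every library shows.

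**Figure D1:**
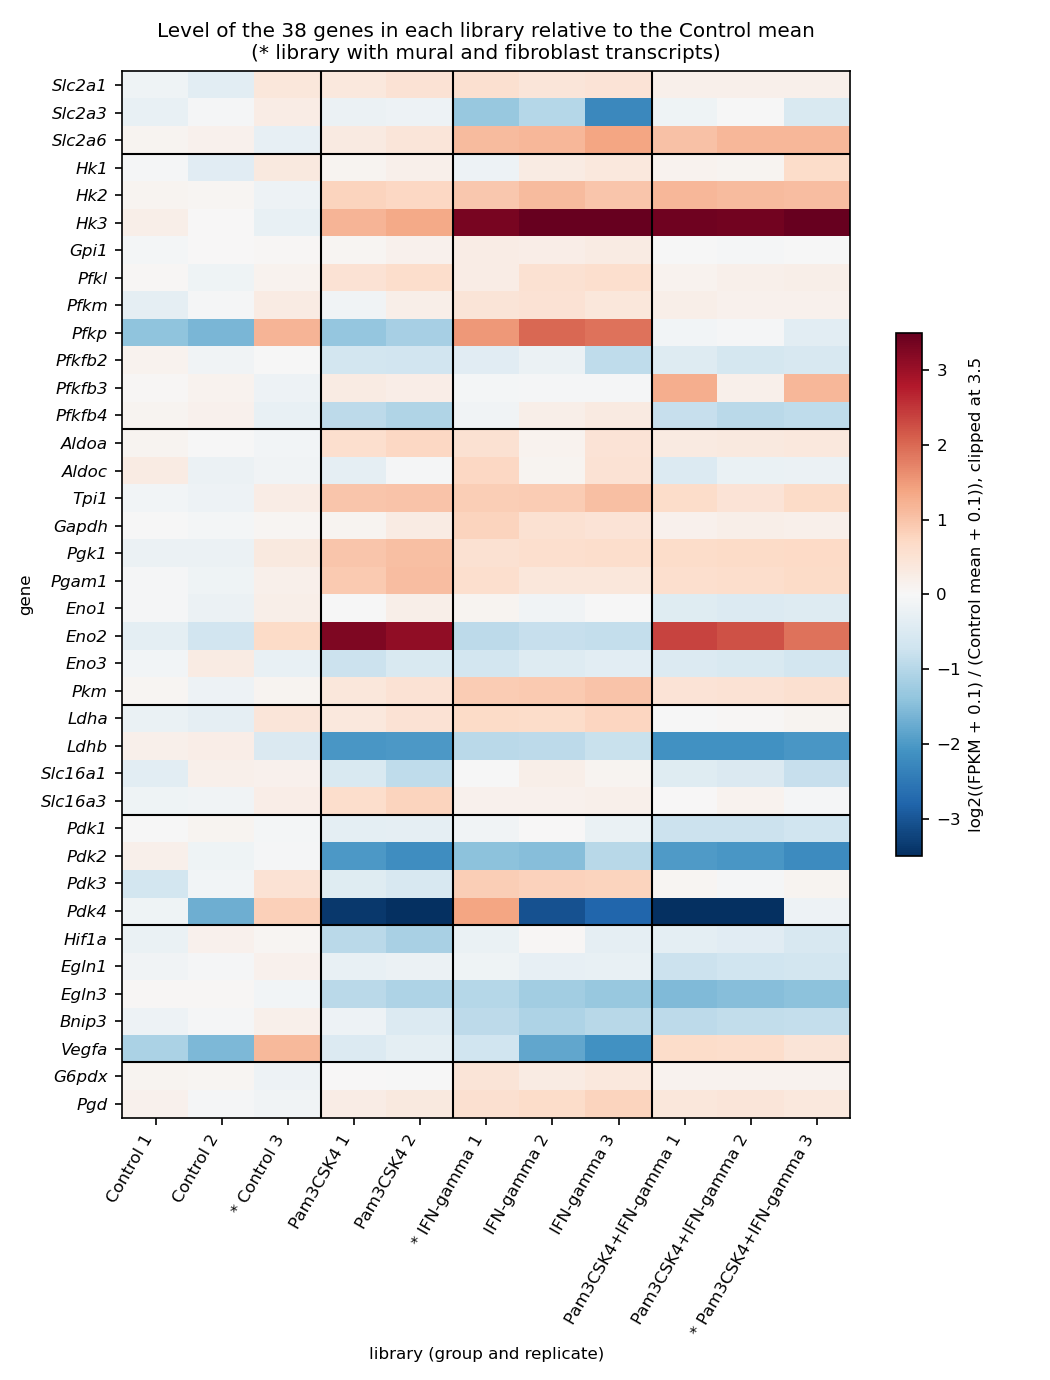
Level of each of the 38 genes (rows, in order of role, separated by black lines) in each of the 11 libraries (columns), as log2 of FPKM plus 0.1 over the Control mean plus 0.1, clipped at 3.5 in both directions. Hk3 is dark red in the 6 libraries that received IFN-γ. Eno2 is red in the 5 that received Pam3CSK4, and darker after Pam3CSK4 alone than after both treatments. Ldhb and Pdk2 are blue in all 8 treated libraries. Pfkp, Pdk4 and Vegfa differ within the Control group, where the asterisk marks replicate 3.

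The first comparison asked what the Toll-like receptor 2 agonist did on its own. After Pam3CSK4, 12 of the 37 members were higher than in Control, where 20% of all 10938 genes tested were higher, and 10 were lower, where 21.4% of all genes were. A gene was called when edgeR's quasi-likelihood test gave a Benjamini-Hochberg adjusted p under 0.05 over those 10938 genes. Of the 10 genes from aldolase to pyruvate kinase, 6 were higher and 1 lower, and of the 9 from hexokinase to phosphofructokinase and its regulators, 3 were higher and 1 lower. No pyruvate dehydrogenase kinase and no hypoxia gene was higher, and 2 of 4 and 4 of 5 of them were lower. The median log2 change was 0.09 over the members and -0.04 over all genes tested. With the 3 libraries left out, 13 members were higher and 9 lower, against 26.3% and 27.4% of all genes.

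Of these 22 calls, 13 held when any single library was left out. Ldha and Eno3 lost theirs without any of 10 libraries, the exception being Control replicate 3, with adjusted p up to 0.225 and 0.218. Slc2a1 lost its call without 8 libraries (all but Control replicate 3 and IFN-γ replicates 1 and 2, adjusted p up to 0.191). Pdk1 lost its call without Control replicates 1 or 2, either Pam3CSK4 library or combined replicates 1 or 2 (up to 0.146). Egln1 lost its call without Control replicate 2, either Pam3CSK4 library or combined replicate 2 (up to 0.176), and Bnip3 without Control replicates 2 or 3, Pam3CSK4 replicate 2 or any combined library (up to 0.271). Aldoa, Pkm and Slc16a1 lost theirs without Pam3CSK4 replicate 2, with adjusted p of 0.0614, 0.0861 and 0.123.

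IFN-γ alone was the second comparison, and here the members leaned towards higher levels. Of the 37, 19 were higher than in Control, against 20% of all genes tested, and 6 were lower, against 21.6%. Higher members came from every role but the hypoxia genes: 2 of 3 transporters, 6 of 9 genes from hexokinase to phosphofructokinase, 6 of 10 from aldolase to pyruvate kinase, 2 of 4 lactate genes, 1 of 4 pyruvate dehydrogenase kinases and both pentose phosphate genes. In the hypoxia group none of 5 was higher and 2 were lower. The median log2 change was 0.36 over the members and -0.07 over all genes. With those 3 libraries left out 19 members were higher and 7 lower, against 22.9% and 24.3% of all genes. Of the 25 calls, 21 held without any single library. Slc16a3 lost its call without any library but Control replicate 3 (adjusted p up to 0.145), Pfkp without Control replicates 1 or 2 or IFN-γ replicates 2 or 3 (up to 0.0684), Eno2 without Control replicate 3 or any IFN-γ library (up to 0.081), and Aldoa without IFN-γ replicates 1 or 3 (up to 0.0561).

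**Figure D2:**
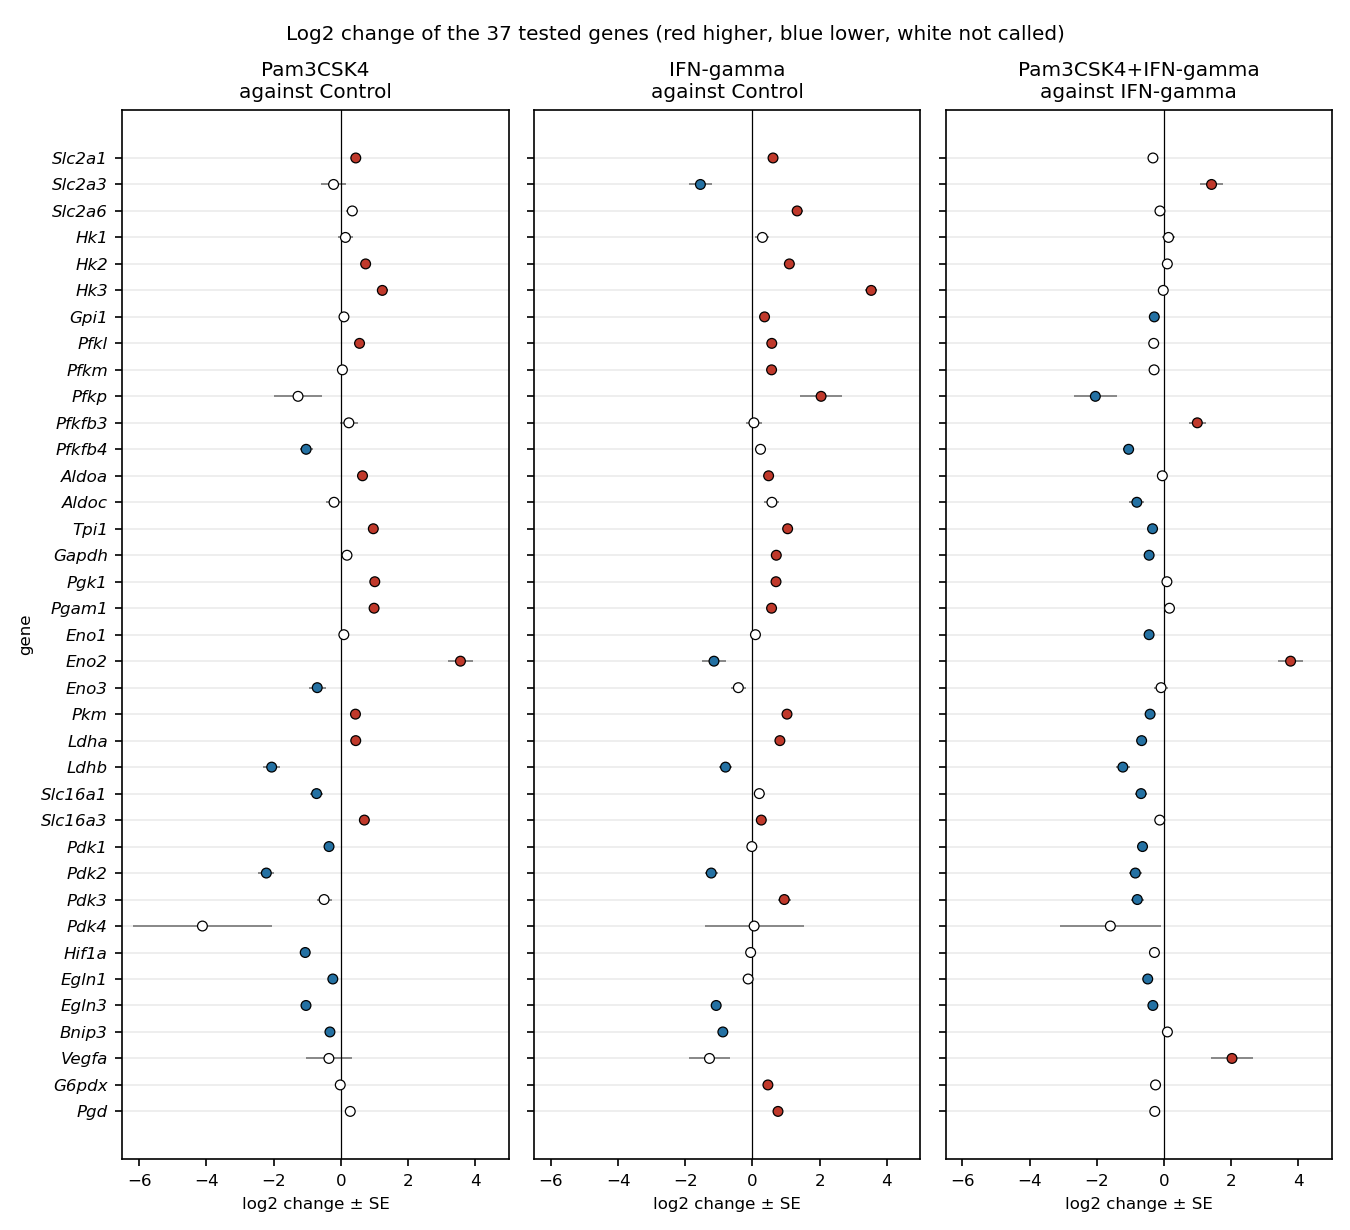
Log2 change (horizontal axis, ± SE of the edgeR fit) of the 37 tested members for Pam3CSK4 against Control, IFN-γ against Control, and both treatments against IFN-γ alone; red points were called higher, blue lower and white not called. IFN-γ gave 19 red and 6 blue points, and adding Pam3CSK4 before it gave 4 red and 16 blue points against IFN-γ alone.

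The third comparison, the question in the study's title, set the combined group against IFN-γ alone to ask what Toll-like receptor 2 activation added to the response to interferon. Only 4 members were higher in the combined group, against 17% of all genes tested, and 16 were lower, against 17.2%. The higher genes were Slc2a3, Pfkfb3, Eno2 and Vegfa. The lower genes came from 5 of the 7 roles: 3 of 9 from hexokinase to phosphofructokinase, 5 of 10 from aldolase to pyruvate kinase, 3 of 4 lactate genes, 3 of 4 pyruvate dehydrogenase kinases and 2 of 5 hypoxia genes, with none among transporters or pentose phosphate genes. The median log2 change was -0.30 over the members and -0.02 over all genes. In the 8 libraries that remain without the 3, 4 members were higher and 19 lower, against 20.6% and 19.6% of all genes. There, 1 of 3 transporters and 1 of 2 pentose phosphate genes were among the lower ones. Of the 20 calls, 14 held without any single library. Vegfa lost its call without either Pam3CSK4 library, IFN-γ replicates 2 or 3 or any combined library (adjusted p up to 0.113), Egln3 without either Pam3CSK4 library, IFN-γ replicates 1 or 2 or any combined library (up to 0.13), and Pfkp without Pam3CSK4 replicate 1, IFN-γ replicates 2 or 3 or any combined library (up to 0.104). Tpi1 (up to 0.103) and Gpi1 (up to 0.0601) lost theirs without IFN-γ replicate 3 or any combined library, and Aldoc without IFN-γ replicates 1 or 3 or combined replicate 1 (up to 0.0773).

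The combined group was also compared with Pam3CSK4 alone. As the collection time after Pam3CSK4 alone is not given, time since the agonist may also differ between these groups. Of the 37, 3 were higher (Slc2a6, Hk3 and Hif1a), against 6.06% of all genes tested, and 4 were lower (Eno1, Slc16a3, Egln1 and Bnip3), against 3.04%. When the 3 libraries were left out 7 were higher and 7 lower, against 11% and 8.43% of all genes. Hk3 was the 1 call of these 7 that held without any single library. Slc16a3 lost its call without Pam3CSK4 replicate 2 (adjusted p 0.0998), and Slc2a6 without either Pam3CSK4 library or combined replicate 2 (up to 0.139). Hif1a (up to 0.16) and Egln1 (up to 0.126) lost theirs without either Pam3CSK4 library or combined replicates 1 or 2. Bnip3 lost its call without Pam3CSK4 replicate 1 or any combined library (up to 0.227), and Eno1 without either Pam3CSK4 library, IFN-γ replicate 3 or any combined library (up to 0.282).

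Against Control, the combined group had 12 higher members, with 23.4% of all genes tested higher, and 9 lower members, with 24.2% of all genes lower. Without the 3 libraries the counts were 17 and 10, against 27% and 26.3% of all genes. Of the 21 calls, 18 held without any single library. Slc16a1 lost its call without Control replicates 2 or 3, IFN-γ replicates 2 or 3 or any combined library (adjusted p up to 0.138), Gapdh when any 1 Control or combined library was left out (up to 0.119) and Aldoa without combined replicates 1 or 2 (up to 0.0661). With the 3 libraries left out, Slc16a1 went from -0.48 (adjusted p = 0.0393) to -0.35 (0.146) and Gapdh from 0.27 (0.0389) to 0.25 (0.0553), so that neither was called. The treated groups share the Control libraries, and the combined group enters 3 comparisons, so the values of one member in several comparisons are not independent.

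Among glucose transporters, Slc2a1, the widely expressed carrier of glucose across the plasma membrane, was the highest in every library. It was at 36.2, 31.2 and 53.2 FPKM in the Control libraries, 52.3 and 57.0 after Pam3CSK4, 59.9, 54.0 and 56.0 after IFN-γ, and 45.5, 45.2 and 45.2 after both. Control replicate 3 stood above the Pam3CSK4 library at 52.3, so those groups overlapped, whereas all IFN-γ libraries were above all Control libraries. The log2 change was 0.45 ± 0.15 (SE) after Pam3CSK4 (adjusted p = 0.0349) and 0.61 ± 0.13 after IFN-γ (adjusted p = 0.00503). After both treatments it was 0.28 ± 0.13 against Control and not called (adjusted p = 0.105), but 0.48 and called without the 3 libraries (adjusted p = 0.00395). Against IFN-γ alone the combined group changed by -0.33 ± 0.13 (adjusted p = 0.082, not called), and by -0.30 without the 3 (adjusted p = 0.0414, called lower).

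Slc2a6, a hexose carrier of internal membranes, was at 6.15, 6.46 and 4.73 FPKM in Control, 7.20 and 7.72 after Pam3CSK4, 12.6, 13.1 and 15.2 after IFN-γ and 11.9, 13 and 13.1 after both. The 6 libraries that received IFN-γ were above the 5 that did not. The change after IFN-γ was 1.33 ± 0.16 (adjusted p = 0.000228), and that of the combined group against Pam3CSK4 alone was 0.87 ± 0.18 (adjusted p = 0.0183). Slc2a3, a high-affinity carrier best known from neurons, was near 1 FPKM in most libraries and fell to 0.414, 0.539 and 0.17 after IFN-γ alone, a change of -1.55 ± 0.34 (adjusted p = 0.00585). It was at 1.05, 1.16 and 0.792 in the combined group, 1.41 ± 0.34 above IFN-γ alone (adjusted p = 0.0111). Slc2a3 was under 1 FPKM in every IFN-γ library and passed the filter only through the other groups, so these calls are conditioned on that. With no filter on low values the changes were -1.49 (adjusted p = 0.0097) and 1.44 (adjusted p = 0.0136).

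Hexokinase expression changed in composition as well as in amount. Hk3, the hexokinase typical of myeloid cells, was at 26.2, 22.5 and 18.7 FPKM in Control, 51.8 and 56.1 after Pam3CSK4, 225, 254 and 256 after IFN-γ and 238, 236 and 255 after both. Neither single treatment overlapped Control, and the 6 libraries with IFN-γ were far above the others. Hk3 rose 2.35-fold after Pam3CSK4 (log2 1.24 ± 0.17, adjusted p = 0.000418) and 11.6-fold after IFN-γ (log2 3.54 ± 0.17, adjusted p = 6.2e-07). The combined group differed from IFN-γ alone by -0.02 ± 0.16 (adjusted p = 0.924).

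Hk2, the inducible hexokinase that binds mitochondria, was at 25.5, 25.1 and 20.9 FPKM in Control, 41.1 and 39.7 after Pam3CSK4, 45.6, 51.3 and 46.7 after IFN-γ and 53.6, 51.0 and 50.1 after both. No treated library overlapped Control, and the changes against Control were 0.74 ± 0.14, 1.10 ± 0.13 and 1.20 ± 0.13 in that order (adjusted p = 0.00232, 0.000146 and 5.21e-05). Hk1, the constitutive form, stayed between 3.75 and 7.78 FPKM and was called in no comparison with all libraries, although without the 3 libraries it was 0.60 higher after IFN-γ (adjusted p = 0.00386) and 0.38 higher after both (adjusted p = 0.0263). Hk3 made up 43.7% ± 2.8 (SD, n = 3) of summed hexokinase FPKM in Control, 54.0% ± 1.77 (n = 2) after Pam3CSK4, 82.1% ± 0.643 (n = 3) after IFN-γ and 80.8% ± 0.703 (n = 3) after both.

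**Figure D3:**
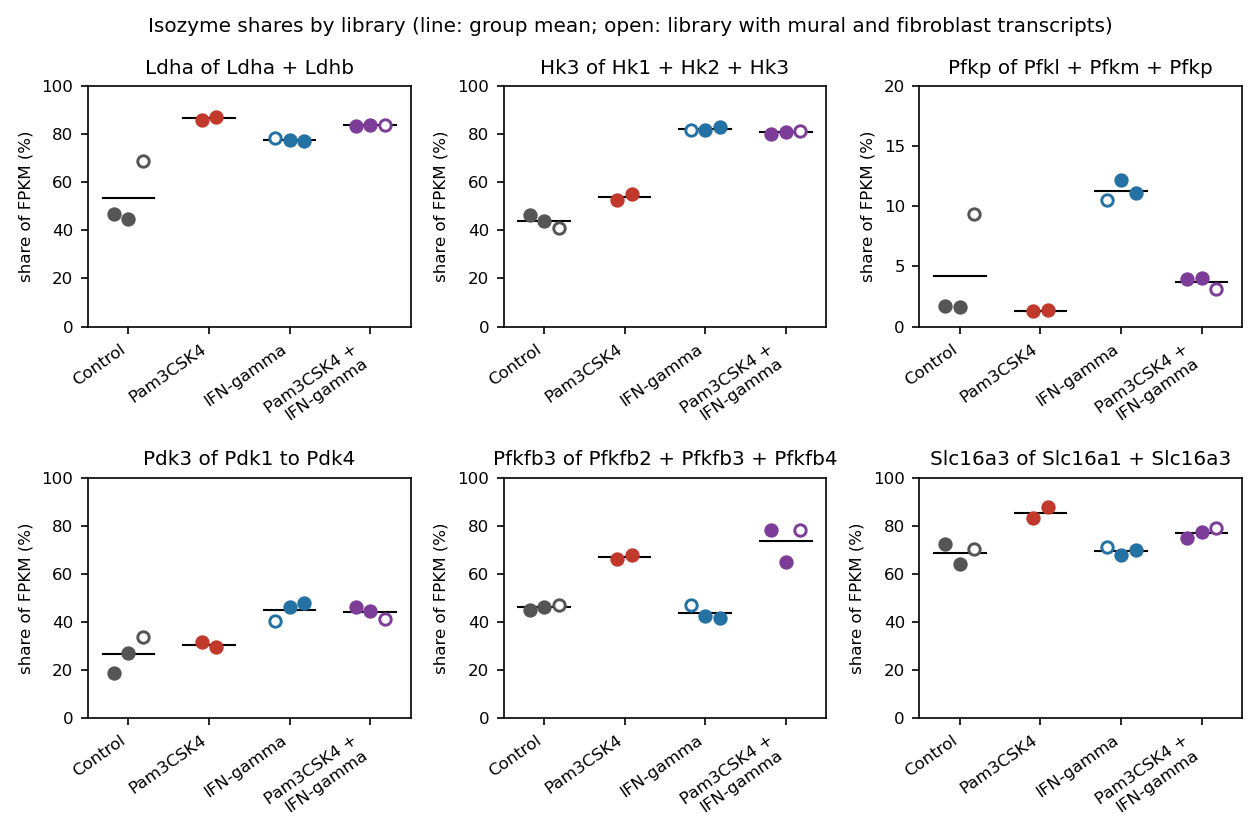
Share of the named isozyme in the summed FPKM of its family (vertical axis, percent; the axis of Pfkp ends at 20%) in each library by group; lines are group means and open circles the 3 libraries named for mural and fibroblast RNA. The Hk3 share is 80.1% to 82.8% in the 6 libraries with IFN-γ, and the Ldha share is above that of every Control library in all 8 treated libraries.

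At the phosphofructokinase step, Pfkl, the liver-type subunit, dominated with 77.5% to 90.9% of the FPKM of its family. It was at 45.7, 39.8 and 48.2 FPKM in Control, 63.9 and 68.3 after Pam3CSK4, 53.7, 64.8 and 66.6 after IFN-γ and 48.7, 50.2 and 51.9 after both. Each single treatment was above every Control library, by 0.56 ± 0.12 (adjusted p = 0.00498) and 0.58 ± 0.11 (adjusted p = 0.00249). The combined group was also above Control in every library, but by 0.27 ± 0.11, which was not called (adjusted p = 0.0672), and without the 3 libraries the change was 0.26 and called (adjusted p = 0.0469). Against IFN-γ alone it changed by -0.31 ± 0.11 (adjusted p = 0.0531, not called), and by -0.43 without the 3 (adjusted p = 0.00734, called lower).

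Pfkp, the platelet-type subunit, was at 0.862, 0.739 and 5.74 FPKM in Control, 0.901 and 1.04 after Pam3CSK4, 7.25, 10.2 and 9.33 after IFN-γ and 2.28, 2.37 and 1.87 after both. Control replicate 3, whose mural and fibroblast marker sum was the highest, stood above the other Control libraries, which were below 1. The change after IFN-γ was 2.04 ± 0.63 with all libraries (adjusted p = 0.0274) and 3.67 without the 3 (adjusted p = 2.83e-07), and leaving out Control replicate 3 alone gave 3.53. The combined group changed by -2.05 ± 0.63 against IFN-γ (adjusted p = 0.0328), and against Control it was not called with all libraries (adjusted p = 1) but was 1.59 higher without the 3 (adjusted p = 1.18e-05). Pfkm, the muscle-type subunit, rose by 0.57 ± 0.13 after IFN-γ (adjusted p = 0.00634).

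The regulators of phosphofructokinase moved apart. Pfkfb3, a kinase that makes the activator fructose 2,6-bisphosphate, was at 7.44, 7.95 and 6.45 FPKM in Control, 8.89 and 8.60 after Pam3CSK4, 6.89, 7.12 and 7.12 after IFN-γ and 17.6, 8.24 and 16.5 after both. In the combined group replicates 1 and 3 were well above replicate 2, and all 3 were above the IFN-γ libraries. The combined group was 0.99 ± 0.24 above IFN-γ alone (adjusted p = 0.0121) and 1.03 ± 0.24 above Control (adjusted p = 0.00656). Pfkfb4, a related enzyme that also degrades that activator, was at 8.2, 8.57 and 6.43 FPKM in Control, 7.15, 8.98 and 9.57 after IFN-γ, but 4.05 and 3.65 after Pam3CSK4 and 4.39, 4.00 and 4.10 after both. All 5 libraries with Pam3CSK4 were below the 6 without it, and the changes were -1.03 ± 0.20 for Pam3CSK4 against Control (adjusted p = 0.0025) and -1.05 ± 0.17 for the combined group against IFN-γ (adjusted p = 0.0013). Gpi1, the phosphoglucose isomerase, rose by 0.36 ± 0.08 after IFN-γ (adjusted p = 0.00469) and was lower in the combined group than after IFN-γ, a change of -0.29 ± 0.08 (adjusted p = 0.0166).

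From aldolase to pyruvate kinase, Aldoa, Tpi1, Pgk1, Pgam1 and Pkm rose after each single treatment. Pgk1, phosphoglycerate kinase, the first step that returns ATP, was at 149, 149.8 and 216 FPKM in Control, 339 and 354 after Pam3CSK4, 250.1, 260.2 and 264 after IFN-γ and 269.7, 275 and 281 after both. The groups did not overlap in any of the comparisons, with Pam3CSK4 alone the highest. The changes against Control were 1.01 ± 0.12 after Pam3CSK4 (adjusted p = 0.000134), 0.70 ± 0.11 after IFN-γ (adjusted p = 0.000714) and 0.79 ± 0.11 after both (adjusted p = 0.00024).

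Pgam1, phosphoglycerate mutase, was at 252, 234 and 294 FPKM in Control, 492 and 547 after Pam3CSK4, 394, 342 and 341 after IFN-γ and 391, 402 and 417 after both. All treated libraries were above all Control libraries, by 0.99 ± 0.09, 0.57 ± 0.08 and 0.73 ± 0.08 (adjusted p = 4.23e-05, 0.000686 and 9.69e-05). Tpi1, triose phosphate isomerase, was at 84.6, 80.5 and 108 FPKM in Control, 177 and 180.5 after Pam3CSK4, 166, 168 and 189 after IFN-γ and 142, 128 and 146 after both. All treated libraries were again above Control, with changes of 0.97 ± 0.11 and 1.05 ± 0.10 after the single treatments (adjusted p = 0.000126 and 4.79e-05) and 0.71 ± 0.10 after both (adjusted p = 0.000329).

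Pkm, pyruvate kinase, which makes pyruvate and ATP, had the highest level of all members, at 863, 732 and 889 FPKM in Control, 1083 and 1177 after Pam3CSK4, 1524, 1553 and 1639 after IFN-γ and 1163, 1185 and 1212 after both. IFN-γ alone stood above every other library, by 1.03 ± 0.10 against Control (adjusted p = 3.92e-05), and the combined group was lower than IFN-γ with a change of -0.41 ± 0.09 (adjusted p = 0.00836). The FPKM of the gene does not separate the M1 and M2 forms of the enzyme. Aldoa, the main aldolase, rose by 0.65 ± 0.15 after Pam3CSK4 (adjusted p = 0.00642) and by 0.48 ± 0.13 after IFN-γ (adjusted p = 0.0157), the second value being 0.33 and not called without the 3 libraries (adjusted p = 0.06). Aldoc, the brain aldolase, was below 3 FPKM throughout and was lower in the combined group than after IFN-γ, with a change of -0.81 ± 0.22 (adjusted p = 0.0197).

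Gapdh, glyceraldehyde phosphate dehydrogenase, was at 25.9, 24.9 and 27.1 FPKM in Control, 27.6 and 32 after Pam3CSK4, 44.8, 37.7 and 36.6 after IFN-γ and 28.7, 29.8 and 29.4 after both. The IFN-γ libraries were above all others, by 0.71 ± 0.09 against Control (adjusted p = 0.000322), and the combined group changed by -0.44 ± 0.09 against IFN-γ (adjusted p = 0.00546). Its level was below that of Tpi1, Pgk1 and Pgam1, its neighbours in the pathway, in every library. The mouse genome holds many near-identical copies of Gapdh, the 9 copies found in the table took 1.42% to 1.87% as many counts as the gene, and how reads that match several places were treated is not given in the sources used here, so its level is uncertain. The same holds for Eno1, whose copy Eno1b took 23.4% to 29.7% as many counts, for Pgam1 with 12.2% to 14.7%, and for Gpi1 with 6.96% to 8.04%. With the counts of the copies added, an alternative chosen after seeing the data, none of the 111 calls over the 6 comparisons was lost.

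The enolases diverged. Eno1, the general form, was at 70.4, 62.5 and 84.0 FPKM in Control, 71.3 and 83.3 after Pam3CSK4, 77.3, 65.9 and 71.1 after IFN-γ and 53.6, 51.7 and 52.9 after both. Only the combined libraries were below the rest, by a change of -0.36 ± 0.10 against Control (adjusted p = 0.0137) and -0.45 ± 0.10 against IFN-γ (adjusted p = 0.00687). Eno2, the enolase named for neurons, was at 0.222, 0.157 and 0.542 FPKM in Control, 3.81 and 3.37 after Pam3CSK4, 0.117, 0.133 and 0.129 after IFN-γ and 1.98, 1.81 and 1.42 after both.

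All 5 libraries with Pam3CSK4 were above the 6 without it for Eno2, which rose 11.8-fold after Pam3CSK4 (log2 3.56 ± 0.37, adjusted p = 8.14e-05) and 13.6-fold in the combined group over IFN-γ (log2 3.77 ± 0.37, adjusted p = 6.91e-05). Eno2 reached 1 FPKM only in those 5 libraries, so it entered the test only through the groups in which it was high, and its calls among the counts above are conditioned on that. With no filter on low values, the Eno2 changes were 3.65 (adjusted p = 3e-05) and 3.80 (adjusted p = 2.64e-05). Eno2 was itself 1 of the 13 neuron markers, and the sum of all 13 was 3.69 and 4.17 FPKM after Pam3CSK4, most of it Eno2. Apart from Tubb3, whose levels are given above, the highest value of the other 11 neuron markers was 0.14 FPKM, for Syp. Leaving out Control replicate 3, the highest Control library for Eno2, moved the change after Pam3CSK4 to 4.17. The lower value after IFN-γ, a change of -1.15 ± 0.36 (adjusted p = 0.0287), was -0.47 and not called without the 3 libraries (adjusted p = 0.113). Eno3, the muscle form, was at 1.03 to 2.19 FPKM in all libraries and fell by 0.70 on the log2 scale after Pam3CSK4 (adjusted p = 0.047).

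The lactate dehydrogenases moved in opposite directions after each single treatment, but both were lower in the combined group than after IFN-γ alone. Ldha encodes the subunit that favours lactate formation, and it was at 142, 135 and 223 FPKM in Control, 215 and 238 after Pam3CSK4, 268, 262 and 281 after IFN-γ and 165, 171 and 179 after both. Control replicate 3 overlapped the Pam3CSK4 and combined libraries, and the IFN-γ libraries were the highest. The changes against Control were 0.44 ± 0.15 after Pam3CSK4 (adjusted p = 0.0418) and 0.82 ± 0.14 after IFN-γ (adjusted p = 0.0014), and without the 3 libraries they were 0.64 and 1.03. The combined group differed from IFN-γ by -0.67 ± 0.14 (adjusted p = 0.00507), and its change against Control of 0.15 ± 0.14 was not called (adjusted p = 0.394) but was 0.32 and called without the 3 libraries (adjusted p = 0.0157).

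Ldhb, the subunit that favours pyruvate formation, was at 162, 167 and 100 FPKM in Control, 35 and 35.2 after Pam3CSK4, 73.9, 75.6 and 82.8 after IFN-γ and 32.7, 32.9 and 34.5 after both. Every treated library was below every Control library. Ldhb fell 4.17-fold after Pam3CSK4 (log2 -2.06 ± 0.25, adjusted p = 0.000187) and 1.74-fold after IFN-γ (log2 -0.80 ± 0.21, adjusted p = 0.0121), and in the combined group it was below IFN-γ alone by a change of -1.23 ± 0.21 (adjusted p = 0.00172). Ldha therefore made up 46.8%, 44.8% and 69.0% of lactate dehydrogenase FPKM in the Control libraries, 86.0% and 87.1% after Pam3CSK4, 78.4%, 77.6% and 77.2% after IFN-γ and 83.5%, 83.9% and 83.8% after both. The summed FPKM of both subunits was lowest in the combined group, at 197, 204 and 213, against 302 to 323 in Control.

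Slc16a3, the carrier that exports lactate from glycolytic cells, was at 20.5, 20.7 and 26.8 FPKM in Control, 34.9 and 39.1 after Pam3CSK4, 25.1, 25.0 and 25.6 after IFN-γ and 23.0, 24.7 and 22 after both. Pam3CSK4 alone was above every other library, by 0.70 ± 0.10 against Control (adjusted p = 0.000605), and the combined group was below it by a change of -0.57 ± 0.10 (adjusted p = 0.00843). Slc16a1, the carrier that moves lactate and pyruvate in either direction, was at 7.92, 11.7 and 11.4 FPKM in Control, 7.15 and 5.50 after Pam3CSK4, 10.2, 11.9 and 11.1 after IFN-γ and 7.68, 7.25 and 5.88 after both. It changed by -0.72 ± 0.19 after Pam3CSK4 (adjusted p = 0.0139) and by -0.68 ± 0.17 in the combined group against IFN-γ (adjusted p = 0.0119).

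**Figure D4:**
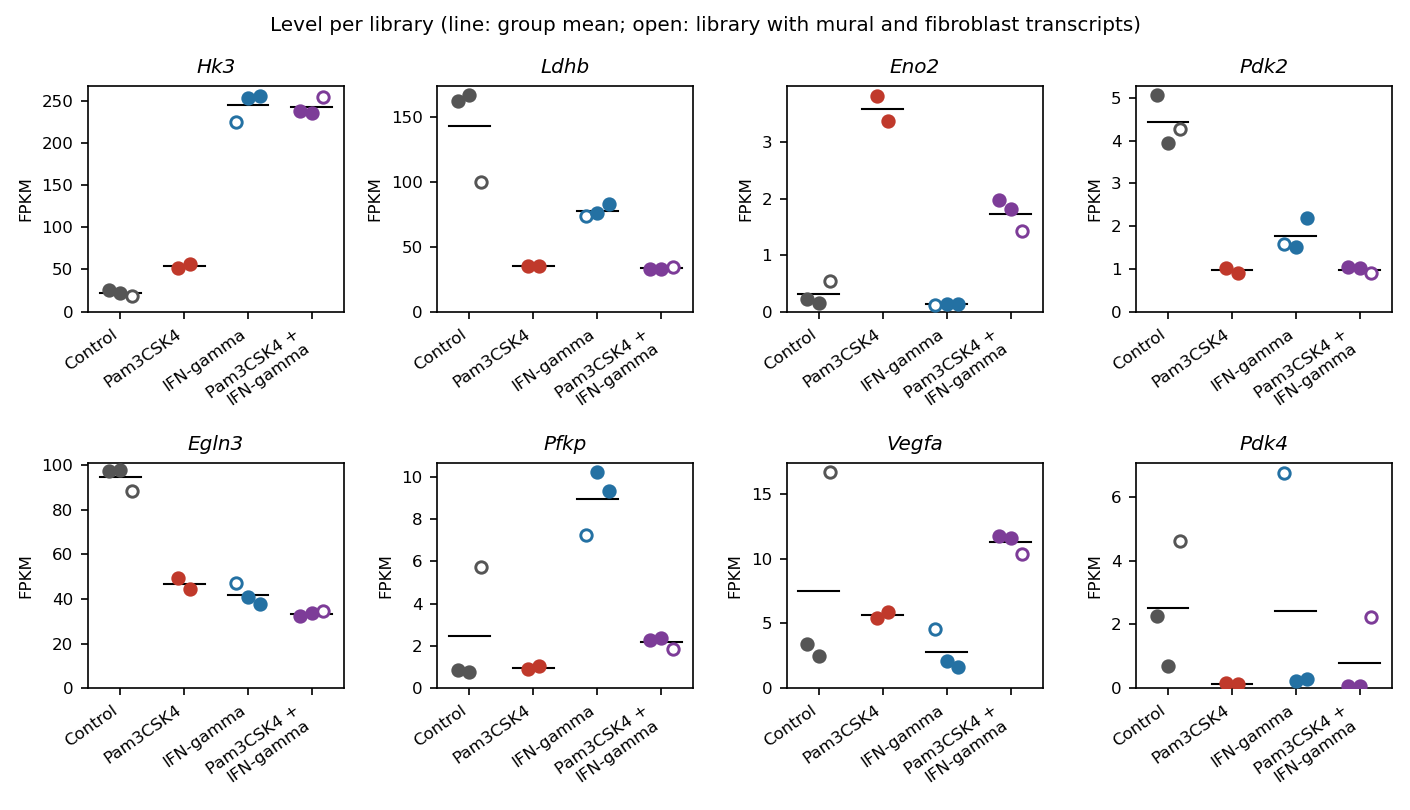
FPKM (vertical axis, from 0) of 8 members in each library by group; lines are group means and open circles the 3 libraries named for mural and fibroblast RNA. In the upper row and for Egln3 the open circles lie near the filled ones except for Ldhb in Control, while for Pfkp, Vegfa and Pdk4 the open Control circle lies far above the others of its group.

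Pyruvate dehydrogenase kinases phosphorylate and switch off pyruvate dehydrogenase. Pdk2, the widely expressed form, was at 5.07, 3.95 and 4.28 FPKM in Control, 1.02 and 0.906 after Pam3CSK4, 1.57, 1.52 and 2.20 after IFN-γ and 1.05, 1.01 and 0.891 after both. All treated libraries were below all Control libraries. The change was -2.22 ± 0.24 after Pam3CSK4 (adjusted p = 8.96e-05), -1.23 ± 0.20 after IFN-γ (adjusted p = 0.00105) and -2.08 ± 0.20 after both (adjusted p = 3.18e-05).

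Pdk3 was at 5.17, 7.53 and 11.6 FPKM in Control, 5.99 and 5.45 after Pam3CSK4, 14.9, 14.4 and 13.9 after IFN-γ and 8.52, 7.84 and 8.67 after both. It was highest in the IFN-γ libraries, 0.95 ± 0.20 above Control (adjusted p = 0.004), and the combined group differed from IFN-γ by -0.80 ± 0.19 (adjusted p = 0.0117). Pdk1, a target of HIF-1α, was at 14.8, 15.9 and 14.1 FPKM in Control, 11.8 and 12.0 after Pam3CSK4, 13.8, 15.1 and 12.6 after IFN-γ and 8.74, 8.76 and 9.23 after both. The combined libraries were the lowest, with a change of -0.66 ± 0.10 against Control (adjusted p = 0.000626) and -0.64 ± 0.10 against IFN-γ (adjusted p = 0.00126).

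Pdk4, the form induced by fasting and fatty acids, differed within 3 of the 4 groups, at 2.27, 0.698 and 4.61 FPKM in Control, 0.151 and 0.129 after Pam3CSK4, 6.76, 0.215 and 0.283 after IFN-γ and 0.0747, 0.0741 and 2.22 after both. In each group that held one, the library with mural and fibroblast transcripts was the highest. Pdk4 was not called in any comparison with all libraries, and without those 3 libraries it was lower than Control after Pam3CSK4 (log2 -3.44, adjusted p = 0.0017), after IFN-γ (-2.51, adjusted p = 0.00655) and after both (-4.23, adjusted p = 0.00079). Apart from those 3 libraries, Pdk4 reached 1 FPKM only in Control replicate 1, and the treated libraries were at 0.0741 to 0.283. It thus passed the filter only through the libraries left out, and these calls are conditioned on that. The part of the other cells in these values was not tested.

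With all libraries, no hypoxia gene was called higher than Control after either single treatment, and Egln3 and Bnip3 were lower after both. Without the 3 libraries, Vegfa was called higher and Bnip3 was not called after Pam3CSK4, with 1 of 5 genes higher and 2 lower, and after IFN-γ none was higher and 3 were lower. Hif1a, the oxygen-regulated subunit, was at 84.9, 109.9 and 103 FPKM in Control, 51.6 and 44.7 after Pam3CSK4, 84.9, 102 and 80.3 after IFN-γ and 78.0, 75.5 and 67.1 after both. The Pam3CSK4 libraries were below every other library, with a change of -1.06 ± 0.15 against Control (adjusted p = 0.000555), and the combined group was 0.72 ± 0.15 above them (adjusted p = 0.0172). These are transcript levels, and HIF-1α is controlled largely at the protein level, which was not measured here.

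Egln3, a prolyl hydroxylase that is itself a HIF target, was at 97.3, 98 and 88.4 FPKM in Control, 49.3 and 44.3 after Pam3CSK4, 47.3, 40.8 and 37.8 after IFN-γ and 32.3, 33.5 and 34.6 after both. Every treated library was below every Control library and the combined libraries were the lowest. The changes against Control were -1.04 ± 0.13, -1.08 ± 0.11 and -1.41 ± 0.11 (adjusted p = 0.00019, 6.93e-05 and 8.28e-06). Egln1, the main oxygen sensor among the prolyl hydroxylases, was at 22.5, 24.0 and 27.2 FPKM in Control and 14.5, 15.0 and 15.7 after both, a change of -0.61 ± 0.07 (adjusted p = 7.18e-05). After Pam3CSK4 alone it was at 20.6 and 21.4, a change of -0.24 ± 0.08 (adjusted p = 0.0312) that was -0.22 and not called without the 3 libraries (adjusted p = 0.0587).

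Bnip3, a HIF target in the removal of mitochondria, was at 40.4, 44.7 and 51.7 FPKM in Control, 40.6 and 32.8 after Pam3CSK4, 23.9, 21.7 and 23.4 after IFN-γ and 24.2, 24.9 and 25.3 after both. The 6 libraries with IFN-γ were below the 5 without it, and the change after IFN-γ was -0.88 ± 0.09 (adjusted p = 9.35e-05). Its change after Pam3CSK4 was -0.32 ± 0.11 (adjusted p = 0.0334), and -0.28 and not called without the 3 libraries (adjusted p = 0.075).

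Vegfa, the vascular growth factor, was at 3.43, 2.47 and 16.7 FPKM in Control, 5.41 and 5.91 after Pam3CSK4, 4.60, 2.08 and 1.65 after IFN-γ and 11.8, 11.6 and 10.4 after both. The value of 16.7 belongs to Control replicate 3 and that of 4.60 to IFN-γ replicate 1, both among the 3 libraries, and each was the highest of its group, whereas the remaining one, combined replicate 3, was the lowest of its group. The part of other cells in these values was not tested. The combined group was 2.02 ± 0.63 above IFN-γ (adjusted p = 0.0335) and 2.63 above it without the 3 libraries (adjusted p = 9.22e-06). Against Control the change was 0.74 ± 0.61 (adjusted p = 0.341), and 2.03 without the 3 (adjusted p = 1.71e-05). The change after Pam3CSK4 also turned, from -0.36 ± 0.68 (adjusted p = 0.7) to 0.87 (adjusted p = 0.00198). After IFN-γ the change was -1.28 ± 0.62 (adjusted p = 0.124), and -0.60 without the 3 (adjusted p = 0.0172). The combined group was 1.10 ± 0.70 above Pam3CSK4 alone (adjusted p = 0.42), and 1.16 above it without the 3 (adjusted p = 0.00136). The interaction was 2.38 ± 0.94 (adjusted p = 0.115), and 1.76 without the 3 (adjusted p = 0.00123).

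Promoter sequence is shown for 4 members that are known HIF targets and that moved in opposite directions here. With all libraries, Pgk1 and Ldha rose after both single treatments and Egln3 and Bnip3 were lower after both. After Pam3CSK4, Ldha and Bnip3 overlapped Control and lost their calls when some single libraries were left out. The sequences are the 250 bases before the RefSeq transcription start in GRCm38.p6, written 5′ to 3′ on the strand of the gene. Capitals mark ACGTG and GCGTG, the core letters of the hypoxia response element, on either strand, so that they also appear as CACGT and CACGC. Where the letters read CACGTG, a match on each strand overlaps and both were counted.
Pgk1, chrX:106186850-106187099, plus strand: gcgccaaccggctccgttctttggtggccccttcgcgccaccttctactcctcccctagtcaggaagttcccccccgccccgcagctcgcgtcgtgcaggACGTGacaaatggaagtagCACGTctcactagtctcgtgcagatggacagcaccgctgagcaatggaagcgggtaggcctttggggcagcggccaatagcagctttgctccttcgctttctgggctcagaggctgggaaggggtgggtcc
Ldha, chr7:46845554-46845803, plus strand: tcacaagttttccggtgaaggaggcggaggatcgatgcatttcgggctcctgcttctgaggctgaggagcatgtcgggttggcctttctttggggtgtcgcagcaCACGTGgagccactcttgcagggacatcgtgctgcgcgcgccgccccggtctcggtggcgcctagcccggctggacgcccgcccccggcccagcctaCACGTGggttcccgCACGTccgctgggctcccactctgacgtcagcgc
Egln3, chr12:54203875-54204124, minus strand: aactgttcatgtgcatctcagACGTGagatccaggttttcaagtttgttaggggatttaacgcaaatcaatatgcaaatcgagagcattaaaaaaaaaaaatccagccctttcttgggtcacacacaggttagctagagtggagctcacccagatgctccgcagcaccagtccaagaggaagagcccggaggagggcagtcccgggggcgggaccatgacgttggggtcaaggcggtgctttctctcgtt
Bnip3, chr7:138909507-138909756, minus strand: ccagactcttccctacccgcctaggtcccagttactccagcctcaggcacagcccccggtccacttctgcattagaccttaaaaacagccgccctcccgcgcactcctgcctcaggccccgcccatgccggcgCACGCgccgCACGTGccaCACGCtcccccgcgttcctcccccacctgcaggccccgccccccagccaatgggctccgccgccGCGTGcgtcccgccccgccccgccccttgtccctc

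The Pgk1 promoter held 2 matches to ACGTG, the Ldha promoter shown 5, that of Egln3 1, and that of Bnip3 2 to ACGTG and 3 to GCGTG. RefSeq gives a second Ldha promoter, chr7:46846832-46847081, with 0 matches to ACGTG and 1 to GCGTG. RefSeq promoters were matched to 37 of the 38 genes by symbol, in all 55 promoters. For 45 of the 55, bases shortly after the transcription start were found in an annotated transcript of the same gene. At least 1 of the 2 cores was present in 80% of these 55 promoters, against 38.6% of all 32851 promoters of the same length. By gene, 34 of the 37 had a core in at least 1 promoter, a count with no background beside it. The promoters of all genes were not matched to those of the members in base composition or expression, and the difference was not tested. The members were also chosen by function and include known HIF targets, so the difference cannot be read as a result of these data. Taken singly, ACGTG was in 43.6% of the members' promoters and 16.6% of all promoters, and GCGTG in 54.5% and 28.2%. A match says only that these letters are present, and promoters of 1 gene can overlap.

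Of the pentose phosphate genes, G6pdx, which encodes the first and rate-limiting dehydrogenase, was at 46.6, 45.4 and 38.4 FPKM in Control, 44.1 and 43.3 after Pam3CSK4, 59.5, 52.6 and 56.4 after IFN-γ and 47.7, 47.4 and 47.0 after both. The IFN-γ libraries were above all others, by 0.46 ± 0.12 against Control (adjusted p = 0.0117). Pgd, the second dehydrogenase, was at 79.7, 69.7 and 66.4 FPKM in Control, 85.7 and 91.8 after Pam3CSK4, 106, 113 and 123 after IFN-γ and 94.9, 97.0 and 92.8 after both. It rose by 0.76 ± 0.12 after IFN-γ (adjusted p = 0.00111) and by 0.48 ± 0.12 after both (adjusted p = 0.0094).

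The 2-by-2 layout also allows a test of whether the agonist acted alike with and without IFN-γ. The agonist came before IFN-γ in the combined group, and the collection time after Pam3CSK4 alone is not given. Time since the agonist may therefore differ between these groups and cannot be told apart from IFN-γ. The interaction is the log2 change from Pam3CSK4 in cells that received IFN-γ minus that in cells that did not, and it was below 0 for 13 of the 37 members, against 8.01% of all genes tested, and above 0 for 3, again against 8.01%. The members below 0 were Slc2a1, Hk2, Hk3, Pfkl, Ldha, Slc16a3 and 7 of the 10 genes from aldolase to pyruvate kinase (Aldoa, Tpi1, Gapdh, Pgk1, Pgam1, Eno1 and Pkm). Those above 0 were Pdk2, Hif1a and Egln3. The lowest value was that of Tpi1, at -1.31 ± 0.15 (adjusted p = 0.000885): the agonist changed it by 0.97 in cells without IFN-γ and by -0.34 in cells that received IFN-γ after it. For Ldha, at -1.11 ± 0.21 (adjusted p = 0.00796), the corresponding changes were 0.44 and -0.67, and for Pkm, at -0.85 ± 0.14 (adjusted p = 0.00499), they were 0.44 and -0.41.

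Hk3 had an interaction of -1.26 ± 0.23 (adjusted p = 0.00782), and the agonist changed it by 1.24 without IFN-γ and by -0.02 with it. Pgk1 was at -0.93 ± 0.16 (adjusted p = 0.00536), with changes of 1.01 and 0.09. Pdk2 was at 1.36 ± 0.30 (adjusted p = 0.0161), with changes of -2.22 and -0.85. The median interaction was -0.34 over the members and 0.06 over all genes. Without the 3 libraries 15 members were below 0 and 6 above, against 13.7% and 14.6% of all genes. Aldoa was not called there, at -0.55 (adjusted p = 0.0523), and Pfkp was, at -2.29 against -0.77 with all libraries (adjusted p = 8.88e-05 and 0.6).

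Of the 16 interaction calls, 8 held when any single library was left out. Slc2a1 (adjusted p up to 0.122), Hk2 (up to 0.134), Aldoa (up to 0.17) and Eno1 (up to 0.173) each lost theirs without any of 8 libraries, the 3 combined libraries, Pam3CSK4 replicate 2 and IFN-γ replicates 1 and 3 among them. The other 2 of the 8 were Control replicate 1 and Pam3CSK4 replicate 1 for Slc2a1, Pam3CSK4 replicate 1 and IFN-γ replicate 2 for Hk2, Control replicate 2 and Pam3CSK4 replicate 1 for Aldoa, and Control replicates 1 and 2 for Eno1. Hif1a lost its call without Control replicate 2, either Pam3CSK4 library, IFN-γ replicates 1 or 3 or combined replicates 1 or 2 (up to 0.139). Egln3 lost its call without Pam3CSK4 replicate 2 or combined replicate 2 (up to 0.101), Gapdh without Pam3CSK4 replicate 2 or combined replicate 1 (up to 0.0914) and Pdk2 without Pam3CSK4 replicate 2 (0.0803).

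**Figure D5:**
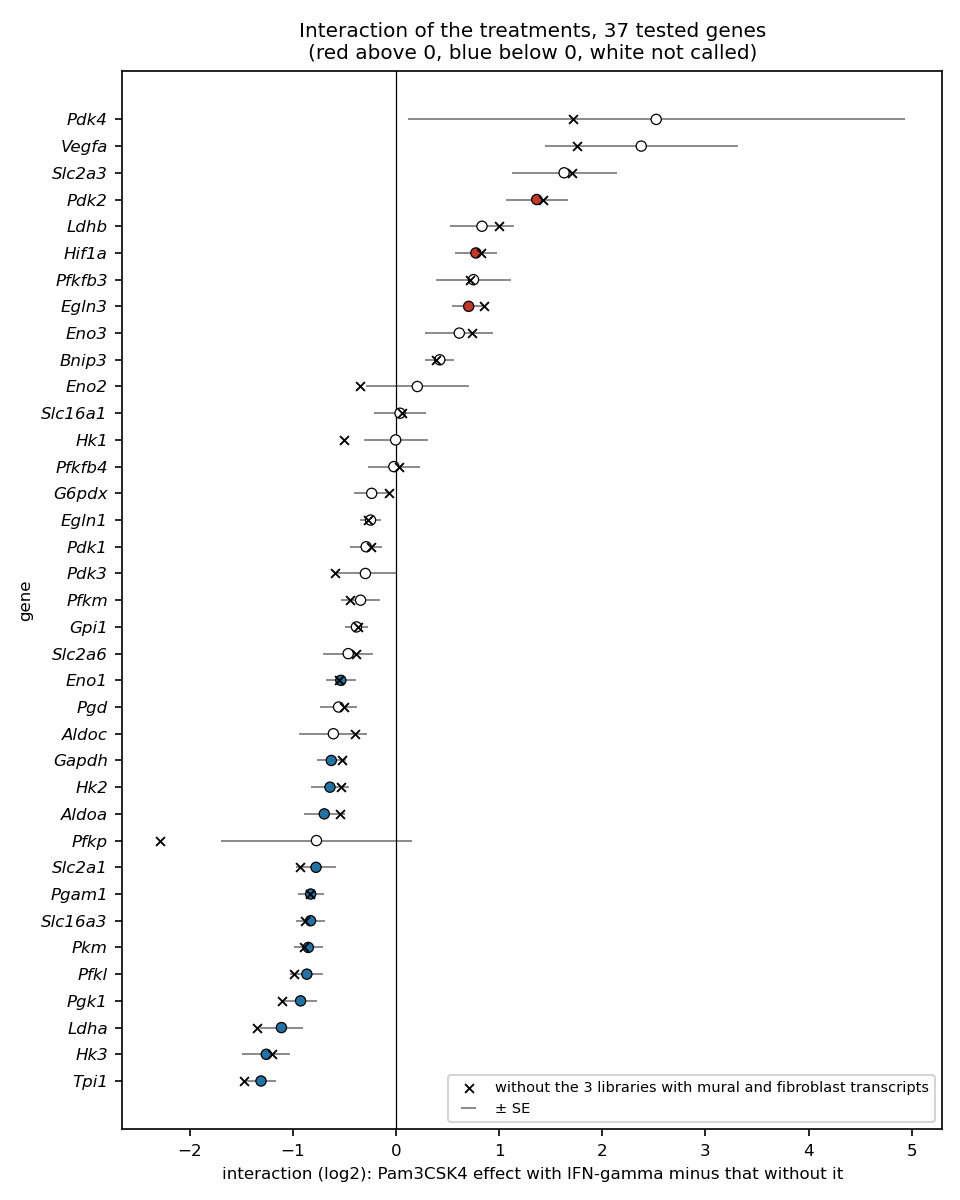
Interaction of the 2 treatments on the log2 scale (horizontal axis, ± SE) for the 37 tested members, sorted by value; blue points were called below 0, red above 0 and white not called, and crosses are the values without the 3 libraries named for mural and fibroblast RNA. The 13 blue points include 7 enzymes from aldolase to pyruvate kinase, and the cross lies far from the point for Pfkp.

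Genes around the pathway were read from lists that hold no member. Of all genes tested, 20% were higher and 21.4% lower after Pam3CSK4, and 20% and 21.6% after IFN-γ. In the combined group against IFN-γ, 17% and 17.2% were. Without the 3 libraries the shares were 26.3% and 27.4%, 22.9% and 24.3%, and 20.6% and 19.6%, in that order. The list counts that follow were not tested as sets, and some lie near these shares. Of 16 citric acid cycle genes, 5 were higher and 1 lower after Pam3CSK4, 8 higher and 2 lower after IFN-γ, and none higher and 5 lower in the combined group against IFN-γ. The same counts without the 3 libraries were 6 and 1, 10 and 2, and 0 and 6. Sdhd, a subunit of succinate dehydrogenase, rose by 0.71 after IFN-γ (adjusted p = 0.000284). Of 11 genes for the entry of pyruvate into mitochondria, 4 were higher and 3 lower after Pam3CSK4. They included Pcx, pyruvate carboxylase, which rose from a mean of 2.23 to 9.54 FPKM (log2 2.08 ± 0.16, adjusted p = 1.21e-05), and Mpc1, a subunit of the mitochondrial pyruvate carrier, which fell from 16.0 to 5.42 FPKM (log2 -1.59 ± 0.29, adjusted p = 0.00192).

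Of 18 tested genes for glycogen, glycerol phosphate and serine side paths, 8 were higher and 3 lower after Pam3CSK4 and 1 higher and 7 lower after IFN-γ, and without the 3 libraries 8 and 4, and 4 and 8. Psat1 of serine synthesis fell by 1.64 after Pam3CSK4 and by 1.47 after IFN-γ (adjusted p = 6.83e-05 and 5.53e-05), from a mean of 74.0 FPKM in Control to 24.0 and 25.0. Gpd2, the mitochondrial glycerol phosphate dehydrogenase, rose by 1.30 after Pam3CSK4 (adjusted p = 0.000779) and was 1.85 higher in the combined group than after IFN-γ (adjusted p = 7.45e-05). Of the 9 other pentose phosphate genes tested, 2 were higher and 1 lower after Pam3CSK4, 1 higher and 2 lower after IFN-γ, and 1 higher and 4 lower in the combined group against IFN-γ, where 5 were lower without the 3 libraries. Of 11 further hexose transport and glycolysis genes tested, none was higher and 7 were lower after Pam3CSK4, or 1 and 8 without the 3 libraries. Slc16a6, a carrier of the lactate transporter family, fell by 1.47 (adjusted p = 0.000274), and Bsg, the chaperone that brings lactate carriers to the membrane, fell by 0.45 (adjusted p = 0.00934).

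Of 10 tested regulators of HIF, 4 were higher and 1 lower after Pam3CSK4 and 4 higher and 2 lower after IFN-γ, and without the 3 libraries the counts after Pam3CSK4 were 5 and 3. Siah2, a ubiquitin ligase for prolyl hydroxylases, rose from a mean of 5.74 to 25.5 FPKM after Pam3CSK4 (log2 2.14 ± 0.10, adjusted p = 1.1e-06). Cited2, which competes with HIF-1α for its coactivator, was at a mean of 42.3 FPKM in Control, 133 after Pam3CSK4, 65.2 after IFN-γ and 44.0 after both, with an interaction of -2.22 ± 0.17 (adjusted p = 0.000101). Of 21 other hypoxia targets tested, 5 were higher and 2 lower after Pam3CSK4 and 1 higher and 7 lower after IFN-γ. Those counts were 12 and 3, and 4 and 10, without the 3 libraries. Hmox1, heme oxygenase, rose by 1.84 after Pam3CSK4 (adjusted p = 0.000213), while Bnip3l, a relative of Bnip3, fell by 1.03 (adjusted p = 8.53e-05).

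Of 23 tested regulators of glucose use, 1 was higher and 9 lower after Pam3CSK4 and 4 higher and 5 lower after IFN-γ, or 2 and 9, and 5 and 6, without the 3 libraries. Mlxipl, the glucose-responsive transcription factor ChREBP, fell from a mean of 20.4 FPKM in Control to 1.52 after Pam3CSK4 (log2 -3.78 ± 0.28, adjusted p = 1.13e-05) and to 8.45 after IFN-γ (log2 -1.18 ± 0.21, adjusted p = 0.00187). Txnip, an inhibitor of glucose uptake whose transcription follows glucose, fell by 1.00 after Pam3CSK4 (adjusted p = 4.72e-05) and rose by 1.04 after IFN-γ (adjusted p = 1.71e-05).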

How the data were processed

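The 11 libraries hold RNA of cultured microglia. The deposited table gives raw counts and FPKM per gene and library, per the file headers. The submitters' processing notes name TopHat2 2.1.0, Cufflinks 2.1.1, Cuffdiff and mm10, without a role for each. For the counting tool, annotation, strand setting and multi-mapped reads, each is not given in the sources used here. FPKM, as the authors deposited it, was used for levels, shares and the filter (at least 1 in at least 2 libraries, which left 10938 genes). Changes came from 1 edgeR 4.0.16 quasi-likelihood fit of 4 group means to the deposited counts (R 4.3.3, TMM scaling, two-sided), with SE as the log2 change over the root of F. Alternatives were RLE scaling, DESeq2 1.42.0, limma 3.58.1 on log2(FPKM + 1), other filters, fewer groups, a replicate block and left-out libraries. The fit was tested on simulated data. Near-identical copies (at least 95% identity over 300 bases) were found with blastn 2.17.0. No pair of libraries agreed within sampling noise. Promoters came from RefSeq. All 38 members are named. From each other list, up to 3 called genes with the largest change and a group mean of at least 5 FPKM were eligible to be named. The members and lists were chosen with earlier results of these data known. Group sizes of 2 and 3 and depths of 15033702 to 20321017 counts limit precision.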

Additional observations from a re-analysis of the deposited data

Results flagged for a closer look

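The effect of Pam3CSK4 differed between cells with and without IFN-γ for 16 members by the test of the difference itself (the edgeR interaction). On the log2 scale the interaction was below 0 for Tpi1 (-1.31), Hk3 (-1.26), Ldha (-1.11), Pgk1 (-0.93), Pfkl (-0.86), Pkm (-0.85) and Slc16a3 (-0.83). It was also below 0 for Pgam1 (-0.83), Slc2a1 (-0.78), Aldoa (-0.70), Hk2 (-0.64), Gapdh (-0.63) and Eno1 (-0.53). A value below 0 need not be a fall. The agonist changed Hk2 by 0.74 without IFN-γ and by 0.10 with it, but Tpi1 by 0.97 and -0.34. The interaction was above 0 for Pdk2 (1.36), Hif1a (0.77) and Egln3 (0.70). Groups of 2 and 3 libraries were too small for a test of single outlying samples. What set these differences was not tested, and IFN-γ cannot be told apart from a possible difference in time since the agonist.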

How the results depend on the processing

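The 111 calls over the 6 comparisons gave 2204 values under the alternatives; none reversed direction, 1957 stayed called and 247 were no longer past the threshold, 179 of them with 1 library left out. RLE scaling and DESeq2 lost none of the 111. The shift of the median gene between scalings was under 0.1 on the log2 scale in every comparison.

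Counts of members called moved by more than 1.5 times as follows, with the cause not tested. Lower after Pam3CSK4 (10) became 6 without a filter, 6 with filterByExpr and 6 with the compared groups alone. Higher in the combined group than after Pam3CSK4 (3) became 5 with DESeq2, 8 with the compared groups alone and 7 without the 3 libraries with stromal transcripts. The lower count there (4) became 7 with DESeq2, 8 with limma, 1 without a filter, 12 with the compared groups alone and 7 without the 3 libraries. Interactions above 0 (3) became 6 with DESeq2, 1 without a filter and 6 without the 3 libraries.

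With 1 library left out, the ranges were 8 to 12 higher and 5 to 9 lower after Pam3CSK4, 16 to 19 and 5 to 7 after IFN-γ, 3 to 4 and 11 to 20 in the combined group against IFN-γ, 1 to 6 and 1 to 9 against Pam3CSK4, 10 to 17 and 8 to 10 against Control, and 0 to 4 above and 8 to 16 below 0 for the interaction. The library whose omission moved most of these counts was Pam3CSK4 replicate 2, with 5 lower after Pam3CSK4, 1 higher and 1 lower in the combined group against Pam3CSK4, and 0 above and 8 below 0 for the interaction. Omitting Control replicate 3 gave 6 higher and 9 lower against Pam3CSK4. Omitting Pam3CSK4 replicate 1, or combined replicate 1, 2 or 3, left 1 or 2 lower against Pam3CSK4.

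With a replicate block, lower in the combined group than after Pam3CSK4 became 2, the other counts staying within 1.5 times, and 14 of 111 calls were lost. Same-numbered libraries of different groups had correlations of their deviations from -0.719 to 0.715 (6 of 15 above 0.1), against -0.749 to 0.81 for other pairs, with the highest r between 2 of the 3 libraries with stromal transcripts, so whether the numbers pair the samples cannot be told from them. Near-threshold calls and genes under 1 FPKM are the least certain at this depth.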
